A study of Mus musculus with 9 samples.

Results

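Cadherins and protocadherins, the calcium-dependent adhesion proteins of the cadherin superfamily, were followed through 9 arrays of mouse brain tissue. The members were the genes whose platform symbol begins with Cdh or Pcdh followed by a digit, or by a, b or g and a digit. Each was measured by at least 1 probe set that names no other gene. Cdh5, the VE-cadherin of endothelium, was left out. This gave 54 of 18194 genes, measured by 98 of 45101 probe sets, and where a gene had several, the brightest on average across all arrays stood for it. Of the 54 members, 20 were Cdh genes, 12 were protocadherins outside the clusters and 22 were genes of the beta protocadherin cluster.

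The study compared 3 kinds of sample with 3 biological replicates each, by the submitters' labels. Microvascular fragments, short pieces of small vessels, came from brains of NMRI embryos at embryonic day 18.5, and the brain tissue of such embryos without the fragments is called rest of brain. Further fragments came from brains of animals 1 year old, of a mixed C57/SV129 background, 2 of them male and 1 female (replicate 2). Age, strain and the RNA kit (a micro kit for embryonic, a mini kit for adult tissue) therefore changed together, and their parts in any difference between adult and embryonic arrays cannot be told apart. The label of rest of brain replicate 3 names the same day in its title and another in its description. No source used here gives the sex of the embryos, how fragments were isolated or whether embryos were pooled. No array of adult rest of brain was analysed here.

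Classical cadherins bind their like on the neighbouring cell and hold the actin cytoskeleton through catenins, and their type I and type II subfamilies let cells of different tissues sort from each other. Protocadherins have similar outer domains and other tails. Those of the delta families mark groups of neurons and guide axons and synapses, and the clustered ones give single neurons a combination of surface isoforms. In vessels, VE-cadherin joins endothelial cells and N-cadherin (Cdh2) endothelial cells with pericytes.

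Values are log2 intensities, and a value of 4 was taken as the limit of background. On each array 47.4% to 48.1% of all probe sets reached 4. The means over 6 endothelial markers were 13.10 to 13.31 in embryonic and 13.45 to 13.64 in adult fragments. In rest of brain they were 5.56 to 5.97, and Pecam1 alone lay under 4 on every array. There Tek stood at 3.50 to 4.73 and Flt1 at 3.54 to 5.20. Ocln stood at 5.48 to 6.18, Cldn5 at 6.85 to 8.39 and Slco1c1 at 10.38 to 10.63. Over 6 pericyte markers the means in rest of brain were 9.30 to 9.84, so rest of brain was not free of RNA of these genes. Over 6 neuronal markers the means were 6.13, 7.30 and 6.17 on embryonic fragments replicates 1 to 3, 12.32 to 12.70 in rest of brain and 4.08 to 4.90 in adult fragments. In the latter Elavl3, Tubb3 and Dcx lay under 4 on every array, while Syt1, Snap25 and Stmn2 averaged 3.71, 4.22 and 10.07. The arrays hold mixed tissue, so fewer cells of a type and less RNA per cell cannot be told apart.

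Of the 54 members, 34 reached 4 on at least 3 arrays and were tested, and 20 lay under 4 on all 9 arrays and were not detected. The latter were 11 of the 22 beta protocadherins, the type I cadherins Cdh3 and Cdh15, the type II cadherins Cdh18, Cdh19 and Cdh20, and Cdh16, Cdh17, Cdh23 and Cdh26. Cdh19 came nearest to the limit, at 3.64 on its highest array. All 12 protocadherins outside the clusters were detected. Of the 34 tested members, 22 reached 4 on all 9 arrays, and 6 (Cdh1, Cdh7, Cdh8, Cdh22, Pcdh20 and Pcdhb12) passed through 1 group alone, so these had to differ.

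**Figure D1:**
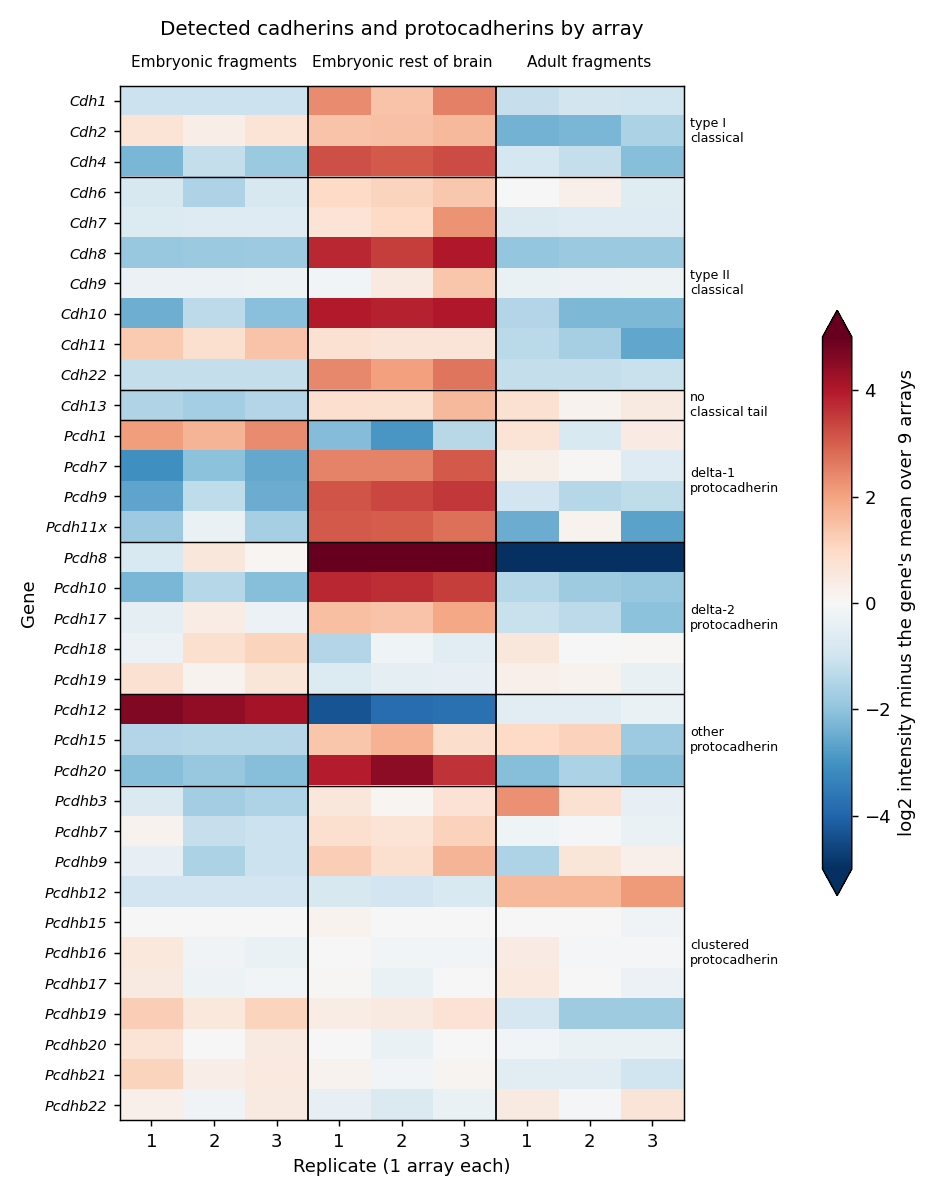
Log2 intensity of the 34 detected members on each array (columns, 3 per group), as the difference from the gene's own mean over 9 arrays; rows are grouped by class, and colours end at -5 and 5, which Pcdh8 exceeds. Rest of brain is highest for most cadherins and delta protocadherins, embryonic fragments for Pcdh12 and Pcdh1, and Pcdhb16 and Pcdhb17 differ little between groups.

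The promoters of 5 members that differed between the embryonic groups are shown first, as the 300 bases around the transcription start given by RefSeq (GRCm38.p6). Each of the 5 holds a marked motif, which most members with a promoter lack, and Pcdh12 and Pcdh1 are not among them. Pcdh19 and Pcdh18 were higher in embryonic fragments than in rest of brain, and Pcdh10, Cdh8 and Pcdh8 were far lower. They are Pcdh19 at chrX:133688944-133689243 (minus strand), Pcdh18 at chr3:49757267-49757566 (minus), Pcdh10 at chr3:45378148-45378447 (plus), Cdh8 at chr8:99416422-99416721 (minus) and Pcdh8 at chr14:79771263-79771562 (minus). Capitals mark a GC box, GGGCGG on either strand, in the first 4 and a TATA box, TATAAA on either strand, in Pcdh8.
Pcdh19: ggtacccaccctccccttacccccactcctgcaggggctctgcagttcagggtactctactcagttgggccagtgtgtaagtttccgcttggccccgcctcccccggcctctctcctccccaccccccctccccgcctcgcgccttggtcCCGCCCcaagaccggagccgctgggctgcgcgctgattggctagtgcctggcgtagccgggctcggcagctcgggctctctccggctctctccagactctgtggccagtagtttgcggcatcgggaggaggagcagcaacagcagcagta
Pcdh18: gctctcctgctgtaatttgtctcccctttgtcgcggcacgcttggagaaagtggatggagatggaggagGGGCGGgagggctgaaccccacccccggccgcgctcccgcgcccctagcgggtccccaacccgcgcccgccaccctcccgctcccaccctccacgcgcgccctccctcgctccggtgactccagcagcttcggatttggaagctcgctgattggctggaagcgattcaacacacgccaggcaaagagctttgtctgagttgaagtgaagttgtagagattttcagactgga
Pcdh10: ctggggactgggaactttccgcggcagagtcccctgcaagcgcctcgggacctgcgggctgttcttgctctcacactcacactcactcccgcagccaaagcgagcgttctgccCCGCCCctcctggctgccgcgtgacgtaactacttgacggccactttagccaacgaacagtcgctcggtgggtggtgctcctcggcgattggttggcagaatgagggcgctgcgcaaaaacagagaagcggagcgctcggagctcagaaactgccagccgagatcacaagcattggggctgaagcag
Cdh8: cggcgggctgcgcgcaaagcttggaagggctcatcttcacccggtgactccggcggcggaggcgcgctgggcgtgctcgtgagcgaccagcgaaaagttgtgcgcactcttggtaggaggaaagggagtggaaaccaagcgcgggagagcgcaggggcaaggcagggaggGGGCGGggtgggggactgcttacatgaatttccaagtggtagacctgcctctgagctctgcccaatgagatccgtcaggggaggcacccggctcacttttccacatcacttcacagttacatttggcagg
Pcdh8: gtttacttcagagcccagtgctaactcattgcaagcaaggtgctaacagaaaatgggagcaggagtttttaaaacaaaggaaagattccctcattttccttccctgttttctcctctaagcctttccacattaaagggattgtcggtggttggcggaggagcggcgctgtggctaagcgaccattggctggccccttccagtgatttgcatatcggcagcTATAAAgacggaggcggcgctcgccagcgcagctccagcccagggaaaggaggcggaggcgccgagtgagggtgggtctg
The GC box, the site of Sp1-like factors, stood in 9 of 22 members with a promoter in the table, against 35.7% of all 32851 promoters. The TATA box stood in 2 of 22, against 13.6%, and in Pcdh8 it began 30 bases before the start. CACCTG, the E-box that Snail and Zeb repressors bind in the E-cadherin promoter, stood in 3 of 22, against 20.2%, and CCGGAAG, a core of ETS factors, in 0 of 22, against 8.86%. Both strands were searched, and none of the motifs contains another. The GC box stood in promoters of members from both directions of change. These are matches of letters and no evidence of binding.

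The embryonic groups had the same age and strain, and comparing them asked which adhesion genes the vessels hold beside the remaining brain. Among members whose direction the filter left free, Cdh4, Cdh10, Pcdh7, Pcdh8, Pcdh9, Pcdh10 and Pcdh11x were lower in the vessels by more than 10-fold. Pcdh12 and Pcdh1 were the members far above rest of brain. Of the 34 tested members 7 were higher and 21 lower at a limma adjusted p under 0.05, and 6 were not called. Among the lower, Cdh1, Cdh7, Cdh8, Cdh22 and Pcdh20 had passed the filter through rest of brain alone. The filter fixed their direction, so they add no support to the count or to the median below. Over all 12009 tested genes, 28.9% were called higher and 37.2% lower, 66.1% in all. The median log2 difference of the tested members was -1.78, or -1.66 with values at background set to the limit, and that of all tested genes was -0.10. The count of 7 higher fell to 3 when rest of brain replicate 1 or embryonic fragments replicate 3 was left out, and to 4 when the array left out was rest of brain replicate 2 or embryonic fragments replicate 1.

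Pcdh12, a protocadherin of endothelium also called VE-cadherin-2, stood at 12.12, 11.96 and 11.67 in embryonic fragments and at 3.19, 3.70 and 3.77 in rest of brain. The groups lay far apart, with rest of brain under the limit on every array. It was therefore at least 241-fold higher in fragments (11.92 ± 0.23 against 3.55 ± 0.32, mean ± SD, n = 3, adjusted p = 1.98e-09). Pcdh1, a delta-1 protocadherin known from airway epithelium, stood at 8.24, 7.82 and 8.49 in fragments and at 3.96, 3.22 and 4.73 in rest of brain. Here too the groups did not overlap, and rest of brain was under 4 on 2 of 3 arrays. The log2 difference was 4.21 ± 0.45 (SE of the fit, adjusted p = 3.68e-05), an 18.5-fold difference that leans on values at background.

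The delta-2 protocadherins split. Pcdh19, which in humans is mutated in an epilepsy of girls, stood at 11.45, 10.88 and 11.31 in fragments and at 10.04, 10.21 and 10.29 in rest of brain. It was 2.04-fold higher in fragments, with no overlap (log2 difference 1.03 ± 0.20, adjusted p = 0.00163), and its other probe sets gave 1.16 and 1.71, both called. Pcdh18 stood at 9.79, 10.87 and 11.17 in fragments and at 8.61, 9.88 and 9.51 in rest of brain. The groups overlapped, fragments replicate 1 lying below rest of brain replicate 2, but each fragment array was higher than rest of brain of the same number. Its difference of 1.28 ± 0.42 was called (adjusted p = 0.0235), and the call was lost without rest of brain replicate 1, without fragments replicate 2 or 3, or with no filter on low values (adjusted p = 0.0596 to 0.084). With the embryonic replicate numbers as a block the adjusted p was 0.00165. The other tested probe set of Pcdh18 stood at 8.94, 9.51 and 9.53 in fragments and at 7.29, 7.61 and 7.57 in rest of brain. It was called higher in fragments without overlap, at 1.84 ± 0.19 (adjusted p = 3.74e-05).

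The other delta-2 members went the opposite way. Pcdh8, also called arcadlin and induced by activity at synapses, stood at 6.45, 7.79 and 7.31 in fragments and at 12.51, 12.48 and 12.78 in rest of brain. It was 42.4-fold lower in fragments (log2 difference -5.41 ± 0.30, adjusted p = 4.27e-07). Pcdh10, which guides axons of the forebrain, stood at 4.81, 5.68 and 4.98 against 10.87, 10.78 and 10.55, a 47.7-fold difference (adjusted p = 7.66e-08). Neither gene had overlapping arrays, and both kept a value above 4 on each fragment array. Pcdh17, of basal ganglia synapses, was lower by less, at 9.45 ± 0.45 against 11.20 ± 0.27 (3.37-fold, adjusted p = 7.6e-04).

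Apart from Pcdh1, the delta-1 family lay low in fragments. Pcdh9 stood at 5.67, 7.03 and 5.80 in fragments and at 11.44, 11.63 and 11.84 in rest of brain, 44.4-fold lower (adjusted p = 8.37e-07). Pcdh7 stood at 4.16, 5.18 and 4.65 against 9.69, 9.72 and 10.28, 37.5-fold lower (adjusted p = 8.63e-07). Pcdh11x, an X-linked member, was 18.8-fold lower (6.37 ± 0.82 against 10.59 ± 0.17, adjusted p = 7.56e-04). Pcdh20, which belongs to neither family, lay under 4 on every fragment array and at 7.95, 8.5 and 7.62 in rest of brain, at least 16.3-fold lower (adjusted p = 5.46e-08). Pcdh15, a protein of the tip links of hair cells, was at least 4.04-fold lower on the same ground (6.01 ± 0.44 in rest of brain, adjusted p = 0.00663).

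Of the 11 tested Cdh genes 0 were called higher and 10 lower in embryonic fragments, where 37.2% of all genes were lower. Of these, 4 (Cdh1, Cdh7, Cdh8 and Cdh22) had passed the filter through rest of brain alone, so their direction was fixed by the filter and the count supports nothing. Cdh8, a type II cadherin of neural circuits, lay at 3.11, 3.15 and 3.17 in fragments and at 8.76, 8.48 and 9.0 in rest of brain, at least 26.9-fold lower (adjusted p = 3.41e-09). Cdh10, its type II relative, stood at 3.80, 4.91 and 4.14 against 10.19, 10.07 and 10.24, with a log2 difference of -5.88 ± 0.31 (adjusted p = 2.99e-07, 1 fragment array under 4). Cdh4, the type I R-cadherin of retina and brain, was 31.2-fold lower (4.98 ± 0.57 against 9.94 ± 0.10, adjusted p = 2.41e-06). In neither Cdh10 nor Cdh4 did an array of fragments come near rest of brain, while for Cdh8 the filter had fixed that the groups lay apart. Cdh22 and Cdh7 lay at background in fragments and were at least 3.69-fold and 2.03-fold lower, and Cdh6 was 4.57-fold lower (adjusted p = 1.09e-04).

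Cdh1, the E-cadherin of epithelia, was found at 6.55, 5.62 and 6.72 in rest of brain and under 4 in all fragments of both ages. It was at least 4.92-fold lower in embryonic fragments (adjusted p = 5.34e-06). Cdh13, or T-cadherin, is held in the membrane by a lipid anchor and has no catenin-binding tail. It stood at 5.66, 5.48 and 5.68 in fragments and at 8.0, 7.95 and 8.78 in rest of brain, 6.22-fold lower (adjusted p = 1.19e-05). Cdh9 had a difference of -0.85 ± 0.32 (adjusted p = 0.0408) that rested on rest of brain replicate 3 at 5.85, and without that array it was -0.44. The call was lost in 10 of 18 other settings. Its fragment arrays stood between 4.15 and 4.21 at both ages, so a value just above 4 may be background for this probe set.

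Cdh2, the N-cadherin, and Cdh11, a type II cadherin of mesenchymal cells, were well above background in both tissues. Cdh2 stood at 12.75, 12.41 and 12.75 in fragments and at 13.51, 13.53 and 13.68 in rest of brain. Fragments were 1.91-fold lower by this probe set (log2 difference -0.94 ± 0.21, adjusted p = 0.00355), but the other probe set of Cdh2 gave -0.04 ± 0.37 (adjusted p = 0.936). Cdh11 stood at 11.99, 11.50 and 12.12 against 11.46, 11.34 and 11.33. Its difference of 0.49 ± 0.30 was not called (adjusted p = 0.186, 95% interval -0.20 to 1.19), although it passed with these groups fitted alone or without adult fragments replicate 3 (adjusted p = 0.0379 and 0.0429). The other probe set of Cdh11 was called in the opposite direction, at -0.75 ± 0.27 (adjusted p = 0.0378). For Cdh2 the size, and for Cdh11 the direction, of the difference between embryonic tissues thus depended on the probe set.

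**Figure D2:**
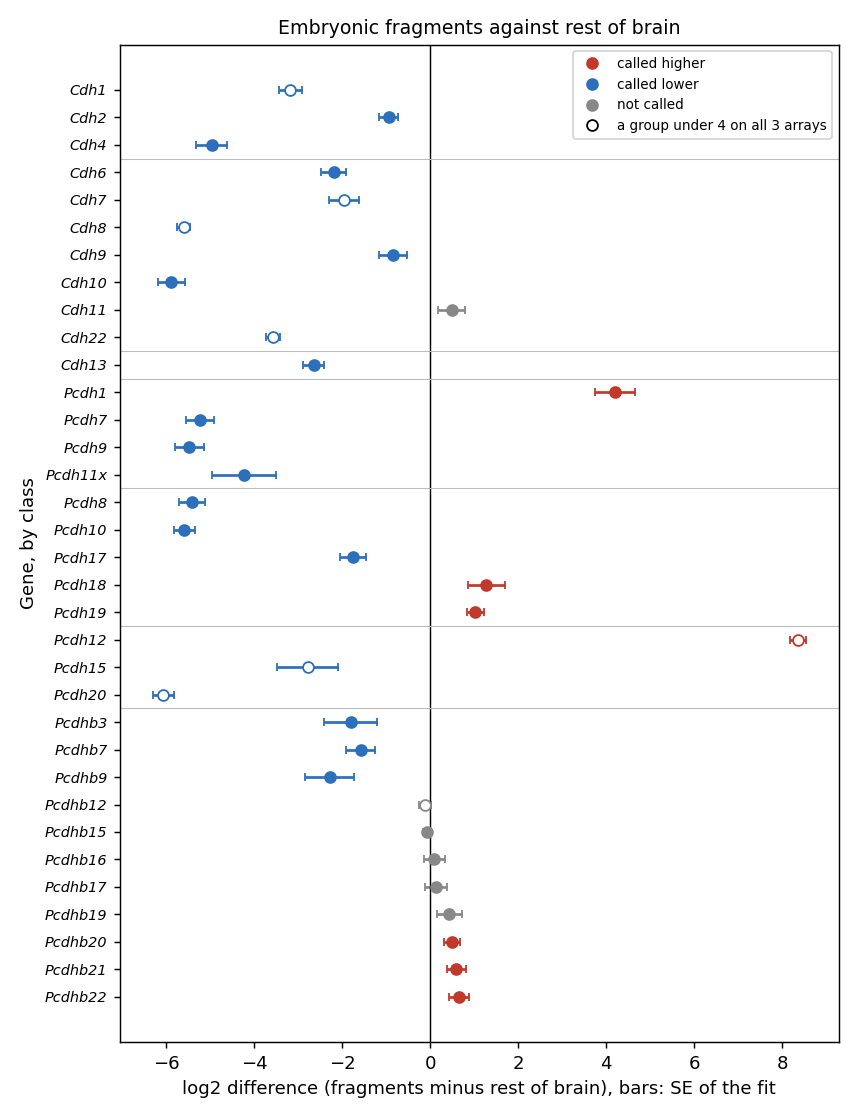
Log2 difference of embryonic fragments minus rest of brain for the 34 tested members (points) with the SE of the fit (bars); colours give the call, and open points mark members with a group under 4 on all 3 arrays, whose size is a bound only. Pcdh12 lies at 8.36 as fitted and Pcdh1 at 4.21, while Cdh10 and Pcdh10 lie at -5.88 and -5.58, and Pcdh20 and Cdh8, fitted against background, at -6.06 and -5.60.

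The fragment arrays differed in neuronal markers. Of the 14 members that were lower in embryonic fragments and above 4 on all their arrays, 7 were highest on replicate 2, the fragment array with the highest mean of neuronal markers (7.30 against 6.13 and 6.17). They were Pcdh7, Pcdh8, Pcdh9, Pcdh10, Pcdh11x, Pcdh17 and Cdh4, while 5 others were highest on replicate 1 and 2 on replicate 3. Of these others, Cdh2 (12.75) and Cdh6 (6.28) stood level on replicates 1 and 3 as rounded. The share of all genes highest on replicate 2 is not given here, so the count does not set the 14 members apart. Fragments replicate 2 was also the highest for neural progenitor markers, at a mean over 5 genes of 9.11 against 7.69 and 8.29. The part of remaining neural cells in the level of these members was not tested. Over 8 markers of fibroblasts and meninges the means were 8.25 to 8.85 in embryonic fragments, 10.54 to 10.71 in rest of brain and 8.25 to 8.56 in adult fragments, so rest of brain was the group with more RNA of these genes, and their part in Cdh11, Cdh6 or Pcdh18 was not tested either.

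Adult and embryonic fragments were compared to ask which adhesion genes of the vessels differ between the ages. Cdh2, Cdh11, Pcdh12, Pcdh8, Pcdh17 and Pcdh1 were lower in the adult, and Cdh13 and Pcdh7 were higher. Of the 34 tested members 6 were higher, 9 lower and 19 not called. Pcdhb12, among the higher, had passed the filter through adult fragments alone, which fixed its direction. Over all tested genes 27.4% were called higher and 29.7% lower in the adult, 57.1% in all. The median log2 difference of the members was 0.00, and that of all genes -0.02. This comparison shares the embryonic fragment arrays with the one before.

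Pcdh12 stood at 6.99, 6.99 and 7.19 in adult fragments and at 11.67 to 12.12 in embryonic ones, 29.0-fold lower in the adult (log2 difference -4.86 ± 0.18, adjusted p = 1.43e-07). The adult arrays were still above rest of brain, where the gene lay at background. Of the 6 endothelial markers, 1 was called higher and 0 lower in the adult, and Cdh5, left out of the members, was 1.62-fold lower (11.44 ± 0.01 against 12.13 ± 0.36, adjusted p = 0.0127). Pcdh1 stood at 6.81, 5.39 and 6.55 in the adult against 8.24, 7.82 and 8.49, 3.83-fold lower (adjusted p = 0.00596). Both vessel-enriched protocadherins were thus lower in adult fragments without overlap of the arrays. Pcdh19 and Pcdh18 were not called, with differences of -0.49 ± 0.20 (adjusted p = 0.0635) and -0.32 ± 0.42 (adjusted p = 0.548, 95% interval -1.27 to 0.63). For Pcdh19 the other probe sets were called lower in the adult, at -0.79 and -2.12 (adjusted p = 0.0303 and 1e-04), and the difference passed without embryonic fragments replicate 2 (adjusted p = 0.0247). The other tested probe set of Pcdh18 was called lower in the adult too, at -1.37 ± 0.19 (adjusted p = 4.04e-04). Whether Pcdh18 differed between the ages thus depended on the probe set.

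N-cadherin fell. Cdh2 stood at 9.70, 9.80 and 10.49 in adult fragments against 12.75, 12.41 and 12.75 in embryonic ones, 6.23-fold lower (log2 difference -2.64 ± 0.21, adjusted p = 1.21e-05). Its other probe set gave a larger drop of the same direction, from 11.47 to 6.64. Cdh11 stood at 9.35, 9.04 and 8.10 against 11.99, 11.50 and 12.12, 8.21-fold lower (adjusted p = 4.97e-05), and its other probe set was lower too, by -1.96 ± 0.27. Neither gene had adult arrays that reached the embryonic ones. Beside them, the means over 6 pericyte markers were 12.70 to 12.91 in embryonic and 12.63 to 12.69 in adult fragments, and those over 5 smooth muscle markers 7.66 to 8.07 and 10.90 to 11.30. Among the pericyte markers Kcnj8 and Foxf2 were called lower in the adult, Rgs5 higher and 3 were not called. Among those of smooth muscle 4 were called higher and 1, Smtn, lower. Of the fibroblast and meningeal markers Col1a2 and Col3a1 were called lower in the adult and Dcn and Lum higher, so that this list did not move one way.

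Pcdh8 fell to background. It lay at 1.69, 1.98 and 1.98 in adult fragments, at background, and at 6.45, 7.79 and 7.31 in embryonic ones, at least 9.08-fold lower (adjusted p = 1.63e-06). Its probe set is of a kind open to cross-hybridization, and the other one gave -3.51 ± 0.26. Pcdh17 stood at 8.46, 8.29 and 7.54 against 9.10, 9.96 and 9.29, 2.56-fold lower (adjusted p = 0.00446), and by its other probe set the difference was -3.09 ± 0.23. The mean over the neuronal markers was lower in adult than in embryonic fragments as well, at 4.08 to 4.90 against 6.13 to 7.30. The list did not move one way, with 3 markers called lower in the adult, 2 not called and 1 higher (Stmn2, 10.07 against 8.98). The part of neuronal RNA in the drop of Pcdh8 and Pcdh17 was not tested. Pcdh10 and Cdh4 were not called between the ages, with differences of 0.24 ± 0.23 (95% interval -0.30 to 0.77) and 0.38 ± 0.35 (-0.43 to 1.19).

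Pcdh7, a delta-1 protocadherin, stood at 7.52, 7.27 and 6.58 in adult fragments and at 4.16, 5.18 and 4.65 in embryonic ones. The adult arrays were all higher, and the difference was 5.5-fold (log2 difference 2.46 ± 0.32, adjusted p = 2.3e-04). Cdh13 stood at 7.93, 7.35 and 7.61 against 5.66, 5.48 and 5.68, 4.06-fold higher in the adult (adjusted p = 1.29e-04), and its other probe set gave 3.49 ± 0.25. Cdh6, a type II cadherin first described in kidney, was 1.89-fold higher (6.95 ± 0.45 against 6.03 ± 0.44, adjusted p = 0.0199), a call lost without embryonic fragments replicate 2, without adult fragments replicate 1 or 2, or with these groups fitted alone (adjusted p = 0.0584 to 0.0675). Pcdh9 had 0.90 ± 0.33 (adjusted p = 0.0463) with overlapping arrays. Its call was lost in 12 of 18 other settings, each array but fragments replicate 2 of the embryo deciding it when left out, and its other probe set gave -0.08 ± 0.24.

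Mean levels of choroid plexus and astrocyte markers were also higher in adult than in embryonic fragments. The means over 5 markers of choroid plexus were 11.40 to 11.48 in adult fragments, 7.57 to 8.80 in embryonic ones and 9.25 to 9.58 in rest of brain, and Kl was above 4 in the adult alone. Over 6 astrocyte markers they were 7.76 to 8.56 in adult fragments, 5.12 to 6.52 in embryonic ones and 9.68 to 10.33 in rest of brain. The part of such tissue, or of smooth muscle, in Pcdh7, Cdh13 or Cdh6 was not tested. Single adult arrays set some values apart. Pcdh15 stood at 5.68 and 5.81 on adult replicates 1 and 2 and at 2.84 on replicate 3, and its difference of 1.55 ± 0.70 (adjusted p = 0.0888) passed without that array (adjusted p = 6.97e-05). Pcdh11x stood at 7.82 on replicate 2, the female, and at 5.15 and 4.96 on the males, and its difference of -0.39 ± 0.72 (adjusted p = 0.687) passed without replicate 2 (adjusted p = 0.029).

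**Figure D3:**
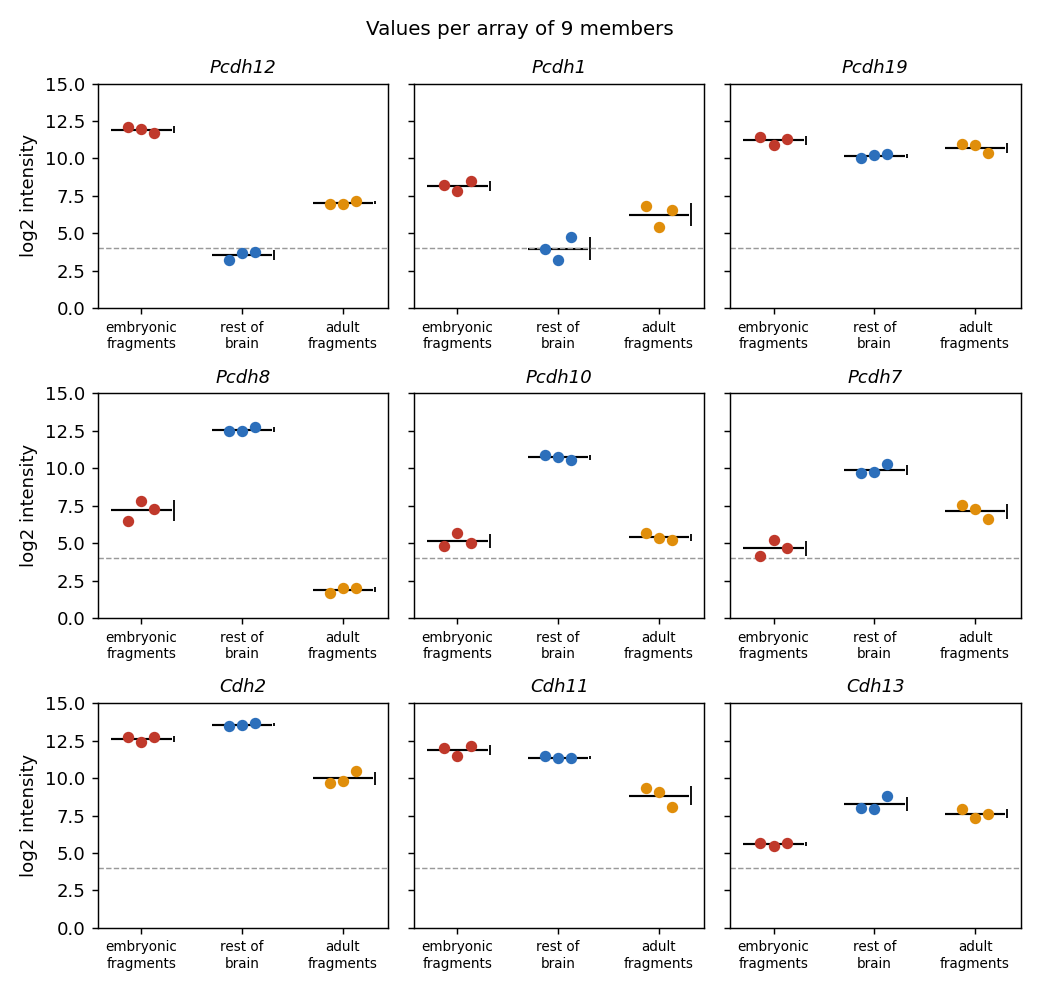
Log2 intensity per array (points) of 9 members in the 3 groups, with the mean (horizontal line), the SD (vertical bar, n = 3) and the background limit of 4 (dashed). Pcdh12 and Pcdh1 are highest in embryonic fragments and lowest in rest of brain, Pcdh8 is at background in the adult, Cdh2 and Cdh11 are lowest in the adult, and Pcdh7 and Cdh13 are lowest in embryonic fragments.

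**Figure D4:**
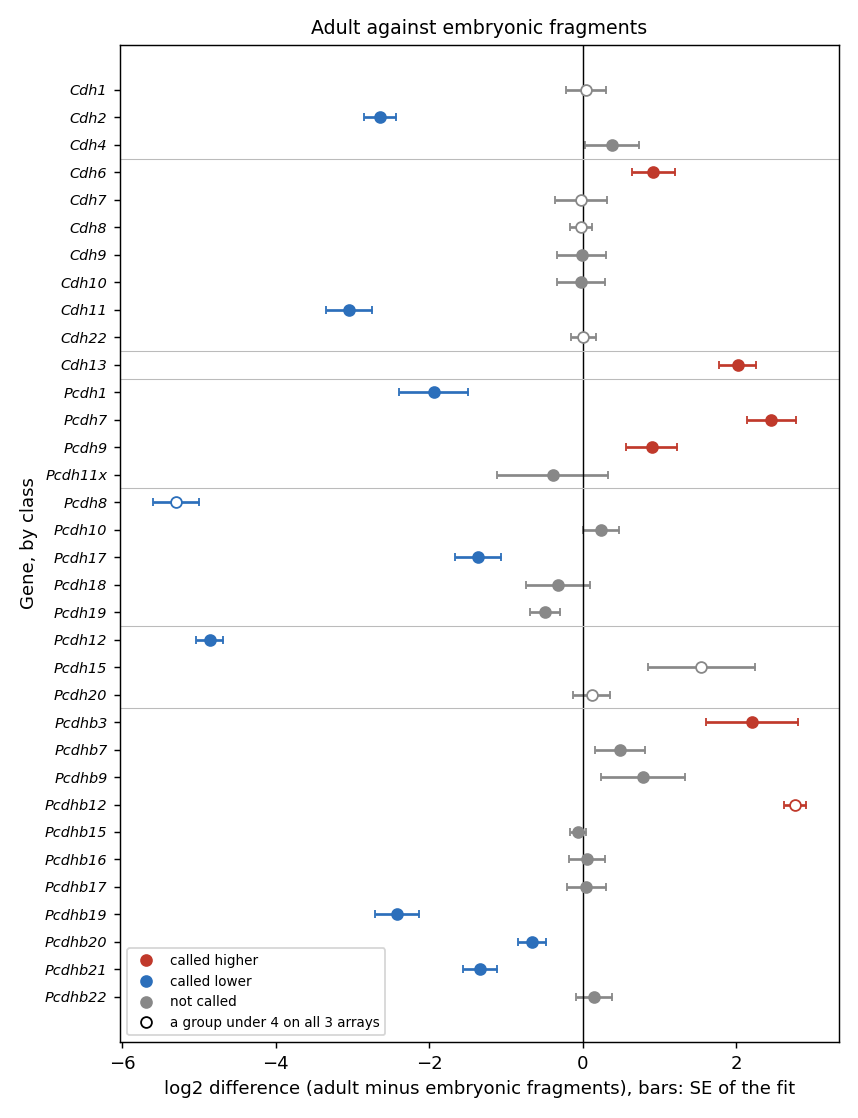
Log2 difference of adult minus embryonic fragments for the 34 tested members (points) with the SE of the fit (bars); colours give the call, and open points mark members with a group under 4 on all 3 arrays. Calls are spread over all classes, from -4.86 for Pcdh12 to 2.46 for Pcdh7 among members measured in both groups. The fitted values of Pcdh8 (-5.30) and Pcdhb12 (2.77) are set against background and have no rank.

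The beta protocadherins, 22 single-exon genes in 1 cluster, are numbered in chromosomal order. Detected were Pcdhb3, Pcdhb7, Pcdhb9, Pcdhb12, Pcdhb15, Pcdhb16, Pcdhb17 and Pcdhb19 to Pcdhb22. Between embryonic tissues 3 of these 11 were higher in fragments, 3 lower and 5 not called, with a median difference of 0.10, and over all genes 28.9% were higher and 37.2% lower. By place in the cluster, the lower ones were Pcdhb3, Pcdhb7 and Pcdhb9 and the higher ones Pcdhb20, Pcdhb21 and Pcdhb22, at the far end. The probe sets of near-identical genes of a cluster may share target RNA, so single members are uncertain.

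Pcdhb9 stood at 7.18, 6.01 and 6.50 in embryonic fragments and at 8.82, 8.39 and 9.30 in rest of brain, 4.84-fold lower without overlap (adjusted p = 0.00577). Pcdhb7 was 2.97-fold lower (6.02 ± 0.75 against 7.59 ± 0.23, adjusted p = 0.00238). Pcdhb3 had -1.80 ± 0.60 (adjusted p = 0.0268), lost without fragments replicate 2 or 3, without rest of brain replicate 1 or 3, or with no filter (adjusted p = 0.0691 to 0.0837). The higher members had small differences. Pcdhb22 stood at 7.86, 7.45 and 8.05 against 7.19, 6.89 and 7.29, 1.58-fold higher (adjusted p = 0.0318), and Pcdhb21 (0.60 ± 0.22) and Pcdhb20 (0.49 ± 0.18) were 1.51-fold and 1.41-fold higher (adjusted p = 0.0407 and 0.0381). Leaving out any of fragments replicates 1 and 3 and rest of brain replicates 1 and 2 ended each of these 3 calls, at adjusted p of up to 0.108 for Pcdhb22, 0.131 for Pcdhb20 and, with another probe set, 0.48 for Pcdhb21. Without rest of brain replicate 3 those of Pcdhb20 and Pcdhb21 were lost as well, and without adult fragments replicate 1 that of Pcdhb21.

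Pcdhb16 and Pcdhb17 held a steady level in all 3 groups. Pcdhb16 stood at 8.54 to 9.40 in embryonic fragments, 8.73 to 8.87 in rest of brain and 8.75 to 9.27 in adult fragments. Its 95% interval between embryonic tissues was -0.43 to 0.63, and that between the ages -0.48 to 0.59. Pcdhb17 had corresponding intervals of -0.44 to 0.69 and -0.52 to 0.62. These intervals leave room for differences of up to 0.69 in log2 units, and no call was made for either gene in any setting. Pcdhb15 lay between 4.74 and 5.10 on all 9 arrays, near background, with differences of -0.07 and -0.06.

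Between the ages, Pcdhb19, Pcdhb20 and Pcdhb21 were lower in adult fragments and Pcdhb3 and Pcdhb12 higher. Pcdhb19 stood at 4.86, 3.90 and 3.91 in the adult against 6.92, 6.22 and 6.79, with a difference of -2.42 ± 0.29 (adjusted p = 1.3e-04, 2 adult arrays under 4). Pcdhb21 was 2.53-fold lower (5.90 ± 0.28 against 7.24 ± 0.40, adjusted p = 9.36e-04) and Pcdhb20 1.58-fold (adjusted p = 0.0133). Pcdhb12 lay at 2.16 to 2.36 on every embryonic array and at 4.76, 4.81 and 5.25 in the adult, at least 1.92-fold higher (adjusted p = 9.39e-07). It was the sole member above background in adult fragments alone. Pcdhb3 stood at 9.0, 7.46 and 6.30 in the adult against 6.0, 4.97 and 5.15, 4.64-fold higher on average (adjusted p = 0.0126) with a wide spread between the adult arrays. Pcdhb7 (0.49 ± 0.33, adjusted p = 0.238) passed without embryonic fragments replicate 1 (adjusted p = 0.00201), and Pcdhb9 (0.79 ± 0.55, adjusted p = 0.255) without adult fragments replicate 1 (adjusted p = 0.0142).

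**Figure D5:**
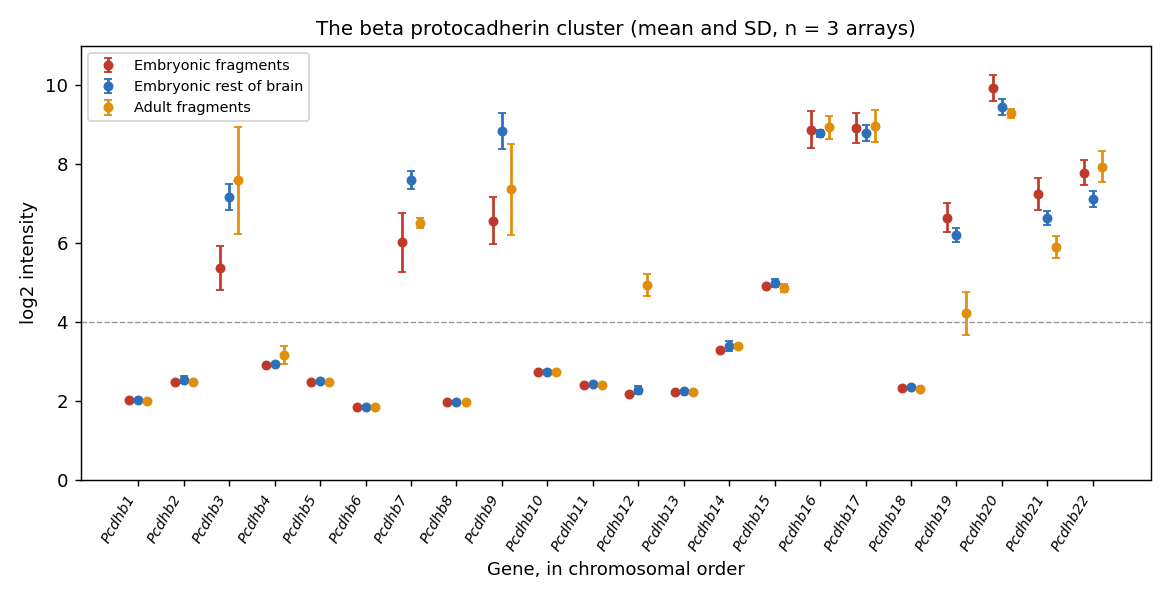
Log2 intensity (mean and SD, n = 3 arrays) of the 22 beta protocadherins in chromosomal order in the 3 groups, with the background limit of 4 dashed. Pcdhb3, Pcdhb7 and Pcdhb9 are lowest in embryonic fragments, Pcdhb16 and Pcdhb17 differ little, Pcdhb19 is lowest in the adult, and 11 genes lie at background throughout.

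Adult fragments and embryonic rest of brain differed in tissue, age and strain together, and their comparison is given for completeness. Of the 34 tested members 5 were higher in adult fragments and 22 lower, against 33.1% and 42.9% of all genes, 76.0% in all. The filter had fixed the direction of Cdh1, Cdh7, Cdh8, Cdh22 and Pcdh20 (lower) and of Pcdhb12 (higher) here too. The median difference was -1.38 for the members, -1.25 with values at background set to the limit, and -0.17 for all genes. Pcdh12 was at least 8.33-fold and Pcdh1 4.85-fold higher in adult fragments (adjusted p = 2.27e-07 and 0.00153). Pcdhb22 was 1.76-fold higher (adjusted p = 0.0108). Pcdh8 was at least 385-fold lower, Pcdh20 at least 16.3-fold, Cdh8 at least 26.9-fold and Pcdh10 40.4-fold lower (adjusted p = 2.3e-09 to 7.52e-08). Cdh10 had -5.91 ± 0.31 (2 adult arrays under 4), and Pcdh11x was 24.6-fold lower (adjusted p = 3.51e-04).

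Cdh13 changed direction with the probe set. Its difference of -0.62 ± 0.24 (adjusted p = 0.0415) stood against 0.72 ± 0.25 by the other probe set (adjusted p = 0.028), so that which of adult fragments and rest of brain held more is not settled, and without rest of brain replicate 3 it was -0.35. The call was lost in 10 of 18 other settings. Pcdh19 had 0.54 ± 0.20 (adjusted p = 0.0359), lost without any 1 array of rest of brain or without adult fragments replicate 1 or 2. With the embryonic replicate numbers as a block the adjusted p of Pcdh19 was 0.0578 and that of Pcdhb9 (-1.48 ± 0.55, adjusted p = 0.0364) 0.0519, while Pcdh18 (0.95 ± 0.42, adjusted p = 0.0632) passed at 0.00529. Without adult fragments replicate 1 the difference of Pcdhb9 was -0.82.

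The catenins and other junction partners split in embryonic fragments. Of 16 listed genes 14 were tested, and 7 were higher and 6 lower than in rest of brain, with a median difference of 0.50 against -0.10 for all genes, of which 28.9% were called higher and 37.2% lower. Higher were, among others, Vcl, the actin linker vinculin, by 3.04 ± 0.14, Ctnna1 (alpha-E-catenin) by 1.43 ± 0.10 and Ctnnd1 (p120 catenin) by 1.18 ± 0.13 (adjusted p = 1.47e-07, 2.68e-06 and 5.32e-05). Lower were, among others, Ctnna2 (alpha-N-catenin) with -5.61 ± 0.49, Ctnnd2 (delta-catenin) with -5.04 ± 0.31 and Ctnnal1, an alpha-catenin-like protein, with -2.53 ± 0.22 (adjusted p = 8.96e-06, 9.68e-07 and 9.53e-06). Ctnnb1, beta-catenin, was not called at 0.09 ± 0.09. In adult against embryonic fragments 4 of the 14 were higher and 7 lower, against 27.4% and 29.7% of all genes (median -0.39, all genes -0.02). Ctnnal1 was higher in the adult by 4.18 ± 0.22, and Nectin2 and Nectin3, adhesion proteins that work beside cadherins, had -2.97 ± 0.50 and -2.29 ± 0.11.

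Of 13 listed genes for processing and partners of protocadherins, 11 were measured and tested, of which 5 were higher and 3 lower in embryonic fragments than in rest of brain (median 0.01). The 8 called of 11 are close to the 66.1% called over all genes. Adam10, the protease that sheds cadherins and protocadherins, was higher by 1.41 ± 0.10 (adjusted p = 2.76e-06), and Dnmt3b, which methylates promoters of clustered protocadherins, by 4.05 ± 0.18 (adjusted p = 1.16e-07). Cyfip2, of the WAVE complex that some protocadherin tails bind, had -4.28 ± 0.24 (adjusted p = 5.36e-07). Ctcf, the factor that loops the clusters, had -0.36 ± 0.12 (adjusted p = 0.0273). Between the ages 4 of the 11 were higher in the adult and 3 lower (median 0.22), close to the 57.1% called over all genes. Among them were Dnmt3b with -2.14 ± 0.18 and Ptk2b, a kinase that protocadherins inhibit, with 2.78 ± 0.21.

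Several genes had more than 1 probe set. Between embryonic tissues, 17 further probe sets of members were tested, and 14 were called the same way as the representing one and 0 the opposite way. Between the ages 6 of 17 were called the same way, 0 the opposite way and 7 by neither. Between adult fragments and rest of brain 13 of 17 were called the same way and 1, that of Cdh13, the opposite way. For Cdh11 the opposite call between embryonic tissues stands beside a representing probe set that was not called.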

How the data were processed

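Total RNA of each sample was hybridised to 1 short-oligonucleotide array. The authors' deposited log2 values give 1 number per probe set and array. The submitters' processing notes name GCRMA 2.6.0 and R 2.4.1. The log2 scale was read from the range of the values. GCRMA corrects background by base composition and normalizes arrays by quantiles, so a change in total RNA per cell cannot be seen. Scanner output and array dates were not used here.

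Probe sets were named by the platform table (34958 with 1 gene, 932 with several, 9211 unnamed here), and 34754 were found by Entrez identifier in RefSeq (GRCm38.p6), with 0 symbols changed. A gene was tested where its probe set reached 4 on at least 3 of the 9 arrays. The groups entered 1 limma fit (3.58.1, R 4.3.3) over 12009 genes and all 9 arrays, 2-sided, with Benjamini-Hochberg adjustment, and called at an adjusted p under 0.05. Tables were made in Python 3.11.15. The steps were tested on simulated data. A group under 4 on all 3 arrays was at background, and "at least" folds set the other mean against 4. The labels call the replicates biological. Same-numbered embryonic fragments and rest of brain deviated together (r = 0.194, 0.199 and 0.217 over genes). Values as high stood between embryonic and adult arrays, which cannot be paired. For embryonic fragments replicate 1 with adult replicate 2 r was 0.208, and for replicate 3 of both it was 0.214. The correlations therefore cannot show that the numbers pair embryonic arrays, and the block over them was an alternative only. Adult numbers pair nothing.

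Members and lists were chosen with earlier results of these data known. With values are named up to 6 called members per direction and comparison, by size of difference, whose higher group averages 6 or more, and members at 6 or more in all groups that were not called between embryonic tissues. Others named, such as Cdh4, Cdh1, Pcdh17, Pcdhb9 and Pcdhb12, were added after their values were seen. The 9 arrays held 0 identical pairs. The number of arrays limits the precision.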

Additional observations from a re-analysis of the deposited data

How the results depend on the processing

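Counts of called members kept within 1.5 times of those reported in every setting run: other filters, floors, normalizations, probe sets and groups in the fit, blocks, and each array left out. Without 1 array they were 22 to 28 between embryonic tissues, 14 to 16 between the ages and 23 to 27 between adult fragments and rest of brain. With the replicate block over the embryonic arrays they were 28, 15 and 26, against 28, 15 and 27, and over all 3 groups 28, 14 and 25. The block over the embryonic arrays changed no call beyond those of Pcdh19, Pcdh18 and Pcdhb9 given above. With no filter on low values 3 members were called higher in embryonic fragments than in rest of brain, against 7, and Cdh19, which is not detected, was called in all comparisons, at background.

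Of the named members' differences under these settings, 679 kept direction and call, 41 lost and 2 gained the call, and 12 changed sign. Those of Pcdhb16 and Pcdhb17 were not called in any setting. Without 1 array, Pcdhb16 ranged from -0.16 to 0.27 between embryonic tissues, from -0.11 to 0.32 between the ages (also -0.03) and from -0.01 to 0.25 between adult fragments and rest of brain. Pcdhb17 ranged from -0.09 to 0.26, from -0.16 to 0.27 (also -0.08 and -0.03) and from -0.04 to 0.37. With the probe set of highest variance, called differences turned as well, that of Pcdh9 to -0.08 between the ages and that of Pcdh19 to -0.41 between adult fragments and rest of brain. Single other probe sets, an alternative chosen after seeing the data, gave these values again and -0.75 for Cdh11 between embryonic tissues. The cause was not tested. For the members at background the size of a difference is known as a bound alone, and with values under 4 set to 4 that of Pcdh20 between embryonic tissues was -4.02 in place of -6.06. Mean signal near 4 limits what can be said of Cdh9 and Pcdhb15.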

Other observations

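The alpha cluster has no member of its own here, since each of its probe sets names several alpha genes, which share their last exons. Of 6 such probe sets, 3 reached 4 on every array of rest of brain, at 10.93 ± 0.16, 8.70 ± 0.14 and 8.27 ± 0.57 (n = 3 arrays). In embryonic fragments these gave 5.45 ± 0.46, 2.17 ± 0.01 and 2.54 ± 0.01, and in adult fragments 6.53 ± 0.56, 2.22 ± 0.06 and 2.54 ± 0.01. These probe sets were picked for reaching 4 in rest of brain. This fixed the direction of those under 4 in fragments, at 2.17 and 2.54 in the embryonic ones, so they add no support. The probe set above 4 in all groups had its direction left free. It was lower in fragments of both ages, at 5.45 and 6.53 against 10.93. Each of the 3 names 14 alpha genes, so they cannot be taken as independent. No test was run on the alpha values. The beta members were mixed, with 3 of 11 higher in embryonic fragments than in rest of brain, 3 lower and 5 not called. Pcdhb7 and Pcdhb9 stood below rest of brain in fragments of both ages, but for Pcdhb9 in the adult the call was lost in 9 of 18 other settings. Pcdhb16 and Pcdhb17 had like levels in all groups. Of the gamma cluster, Pcdhgc4 alone had a probe set of its own, and it stood at 6.59 ± 0.71 in embryonic fragments, 5.73 ± 0.16 in rest of brain and 4.79 ± 0.70 in adult fragments, with a called difference between the ages (-1.80 ± 0.41, limma adjusted p = 0.00525) and none between embryonic tissues (0.86 ± 0.41, adjusted p = 0.0969).

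Embryonic fragments replicate 1 was the highest array of its group for most detected beta members. Of the 10 beta members that were above 4 on all 3 arrays it was highest in 9. Among them were Pcdhb16 (9.40 against 8.70 and 8.54) and Pcdhb7 (6.88 against 5.54 and 5.64). The 9 include Pcdhb15, near background and all but level at 4.92, 4.91 and 4.92. Sharing of target RNA between beta probe sets was not tested, so the 9 cannot be taken as independent. The share of all genes highest on this array is not given here, so the count does not set the beta cluster apart. On that array the mean of the neuronal markers was 6.13 against 7.30 and 6.17, that of 6 microglia and macrophage markers 11.52 against 13.20 and 13.38, and that of the choroid plexus markers 7.57 against 8.80 and 8.70. Their part in these values was not tested.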
